A study of Bos taurus with 61 samples.

Results

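Genes that drive chromosome segregation and DNA replication were followed across 8 tissues of beef heifers before and after puberty. The set was a fixed list of 49 gene names, covering mitotic cyclins and kinases, kinetochore and spindle proteins, replication licensing and fork proteins, and transcription factors of the cell cycle. Of these, 34 could be matched to a gene among the 24616 genes with deposited values, 21 by symbol, 11 by UniProt entry name and 2 through the study's own pairing of identifiers with symbols. The other 15 (TOP2A, CCNB2, BUB1, AURKB, KIF11, KIF23, NUF2, MAD2L1, MCM5, RRM1, TYMS, GINS2, CHEK1, MELK and DLGAP5) were not analysed here.

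The heifers were Brangus, a composite of Brahman and Angus, 4 pre-pubertal (PRE) and 4 post-pubertal (POST) by their blood progesterone. RNA-Seq was performed on hypothalamus, pituitary gland, ovary, uterus, endometrium, adipose, liver and *longissimus dorsi* muscle, giving 61 libraries (30 PRE and 31 POST) with 3 or 4 libraries in each of the 16 groups of tissue and stage. POST heifers were older, heavier and killed later in the study, all in the middle of the luteal phase, and PRE heifers had antral follicles but no corpus luteum, so puberty, age, date and a corpus luteum cannot be told apart. The values used were the authors' means per group, as RPKM, a read level scaled for the length of a gene's exons and for library depth. Summed over genes, the mean unique reads of a group came to at least 17109554 (PRE endometrium) and at most 27132722 (PRE adipose). Values of single libraries were not used here. No spread between heifers therefore accompanies any value, no test was made, and a difference between stages is a difference between 2 means whose error is unknown. Differences were computed as log2(RPKM + 0.2), POST minus PRE, and a gene was counted as lower or higher when this difference reached 2 (4-fold) and its mean RPKM was 0.2 or more in either stage. Counts over the list are given beside the share of all genes past the same rule, which also holds for the counts of its subgroups in the same tissue.

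Cells that divide make the proteins of mitosis in a burst. CDK1 with cyclin A or B drives entry into mitosis, the checkpoint proteins at the kinetochore hold division until every chromosome is attached to the spindle, and the anaphase-promoting complex with CDC20 and UBE2C then marks cyclins for destruction. Earlier in the cycle, CDC6 and CDT1 load the MCM helicase onto origins, and PCNA, FEN1 and ribonucleotide reductase serve the moving fork. In adult females the granulosa cells of growing follicles and the lining of the uterus are among the tissues known for hormone-dependent division. RNA was taken from whole tissue, so fewer dividing cells and less of these RNAs per cell cannot be told apart in any value below.

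The ovary held the highest levels. The median over the 34 genes was 11.7 RPKM in POST ovary and 11.5 RPKM in PRE ovary, followed by 6.71 in PRE uterus and 5.22 in PRE endometrium. The other 12 groups had medians from 1.09 in POST adipose down to 0.268 in PRE muscle. POST uterus, at 0.862, and POST endometrium, at 0.744, lay inside that range, between adipose, pituitary gland and hypothalamus. Neighbours in this order differ by little, and without a spread it is not known which of them differ. The highest of the 16 groups was PRE ovary for 30 genes, POST ovary for KIF20A and CENPE, POST endometrium for CCNB1 and PRE hypothalamus for ANLN. The share of all genes highest in each group was not computed.

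**Figure D1:**
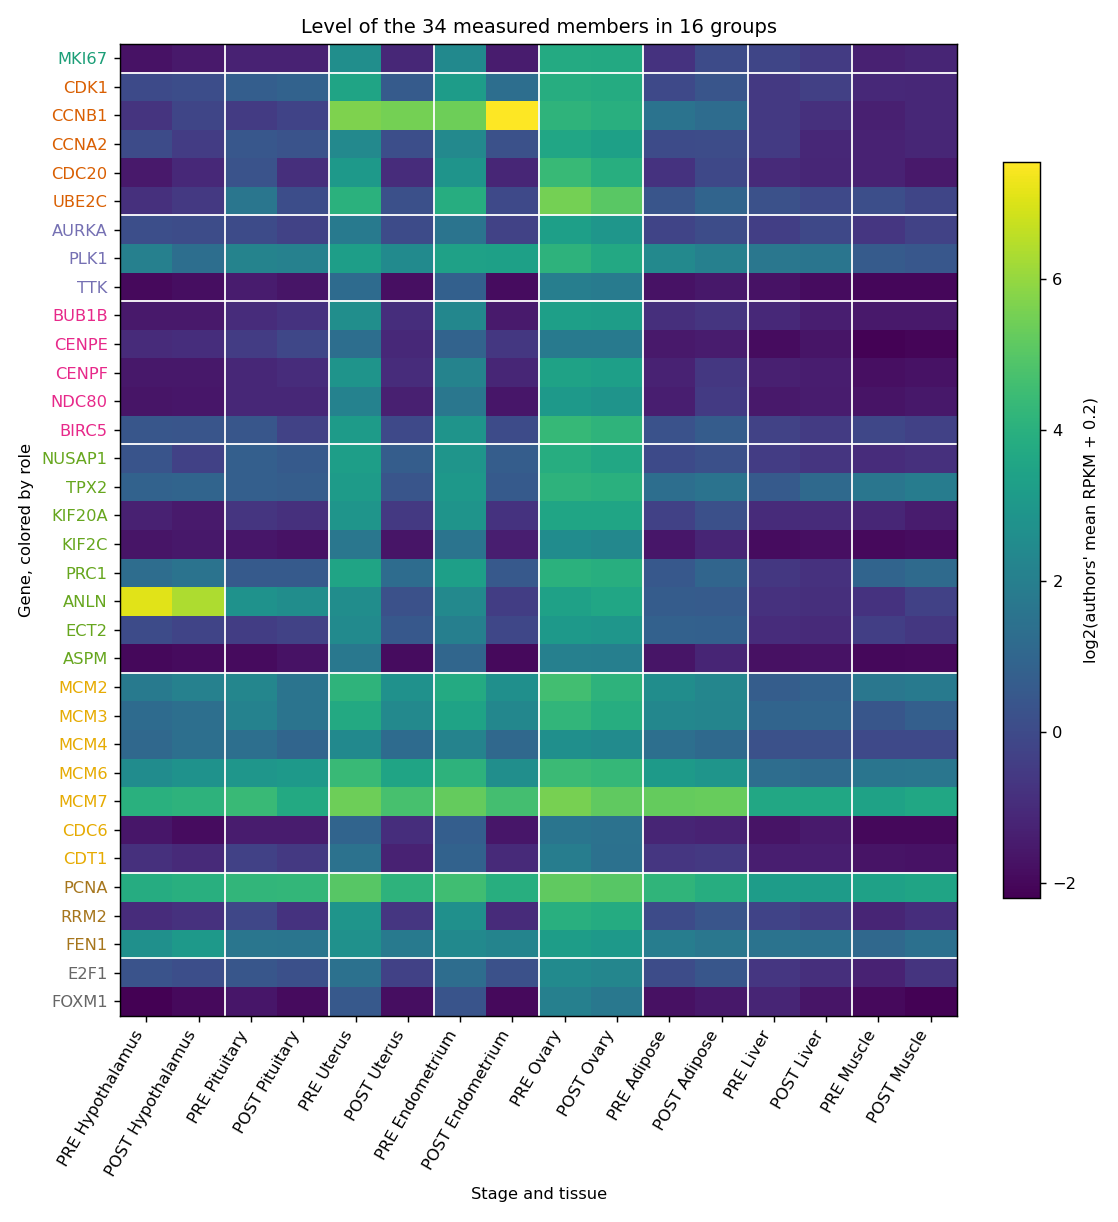
Heat map of the level of the 34 measured genes (rows, colored by role) in 16 groups (columns, PRE and POST of each tissue), as log2(authors' mean RPKM + 0.2), 1 mean per cell. Both ovary groups and the PRE groups of uterus and endometrium are bright, with medians of 11.5, 11.7, 6.71 and 5.22 RPKM, whereas CCNB1 is brightest in POST endometrium (187.9 RPKM) and ANLN in PRE hypothalamus (138.5 RPKM).

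In 5 genes the mean over both ovary groups was more than 4-fold that of the next tissue, a rule for which the share of all genes was not computed. FOXM1, a transcription factor that activates mitotic genes, showed the largest ratio at 5.36, from ovary means of 3.98 RPKM in PRE and 3.06 in POST. UBE2C, the ubiquitin-conjugating enzyme of the anaphase-promoting complex, followed with a ratio of 4.60, from 45.6 and 33.4 RPKM. MKI67, the antigen used to count dividing cells, had a ratio of 4.30, AURKA, the kinase that builds the spindle poles, 4.14, and CDC20, the activator of the anaphase-promoting complex, 4.09. Averaged over the 16 groups, the highest gene was MCM7, a subunit of the replicative helicase, at 25.3 RPKM, and the lowest was CDC6, the loader of that helicase, at 0.65 RPKM. The granulosa markers summed to 1004 RPKM before and 978 after puberty, and the luteal markers to 249 and 2426 RPKM, with 4 of the 5 luteal genes measured 4-fold higher in POST (1.38% of all genes). The oocyte markers summed to 12.1 and 8.94 RPKM over 13 genes, none at 0. The same sum was 8.92 RPKM in POST hypothalamus and 9.65 in POST endometrium, so a level of this size was not particular to ovary.

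Both uterine tissues showed most of these genes at much lower levels after puberty. In uterus 21 of the 34 genes were 4-fold lower in POST and none was higher, against 1.61% of all genes lower (247 of 15389) and 1.34% higher. In endometrium 20 were 4-fold lower and 1, CCNB1, was higher, against 3.31% of all genes lower (517 of 15620) and 3.23% higher. With 1 RPKM added in place of 0.2, the counts of lower genes were 12 in uterus and 9 in endometrium. The median difference of the 34 genes was -2.40 on the log2 scale in uterus and -2.24 in endometrium, where the medians of all genes compared were -0.04 and -0.03. Among genes of 1 RPKM or more in a stage, a limit that all 34 reached, the shares of all genes were 1.78% lower and 1.46% higher in uterus and 3.64% lower and 3.56% higher in endometrium. With the smaller step of 2-fold, 28 genes were lower in uterus (7.25% of all genes) and none higher (5.32%), and 29 were lower in endometrium (13.5%) and CCNB1 higher (10.4%). Every gene of the list had a difference below 0 in uterus (54.2% of all genes compared), and all but CCNB1 did in endometrium (51.8%). In endometrium that of PLK1 turned above 0 when reads were scaled by the group total only. After centring on the median of all genes, 32 genes lay below 0 in endometrium with either measure. In uterus 34 then did with RPKM and 33 with the scaled reads. Uterus and endometrium were taken from the same heifers, so both counts rest on the same animals.

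**Figure D2:**
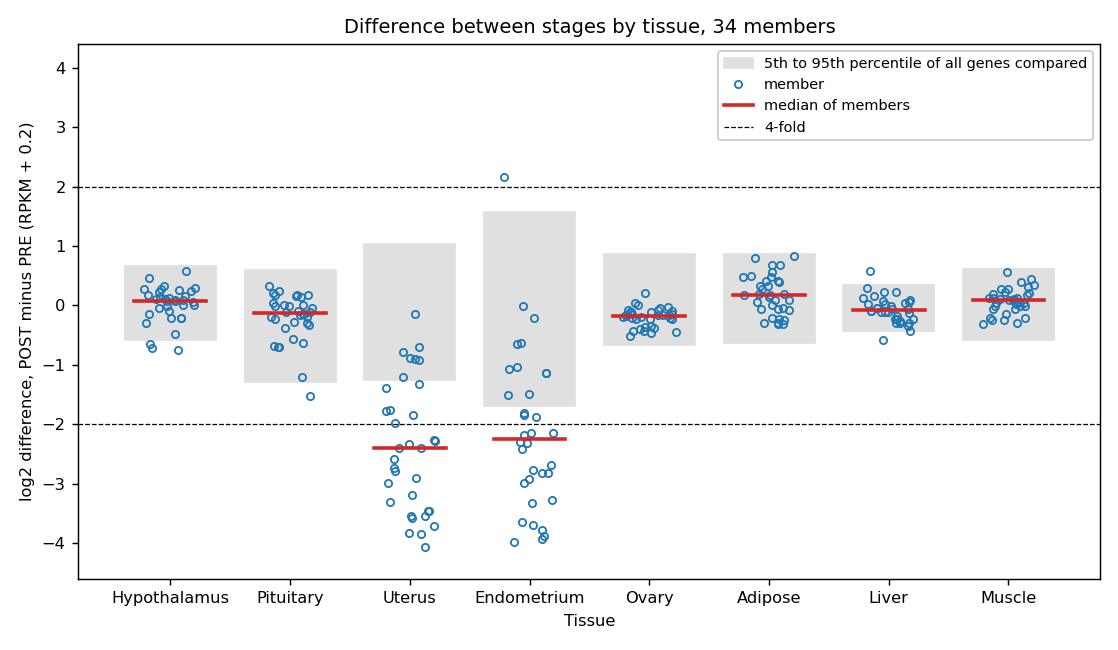
Difference between stages for each of the 34 genes (open circles) in 8 tissues, as log2(RPKM + 0.2), POST minus PRE, of the authors' group means. Red bars are the medians of the 34 genes, grey boxes span the 5th to 95th percentile of all genes compared, and dashed lines mark 4-fold. The medians are -2.40 in uterus and -2.24 in endometrium and lie between -0.17 and 0.17 in the other 6 tissues.

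The largest difference in both tissues was that of CDC20 (ENSBTAG00000009819, UMD3.1 chromosome 3, 103238486 to 103242373). Its mean was 8.33 RPKM in PRE and 0.31 in POST uterus, and 6.996 in PRE and 0.254 in POST endometrium, differences of -4.06 and -3.99. Its level in POST uterus and POST endometrium was near that in hypothalamus, liver and muscle, which ranged from 0.143 to 0.295 RPKM. UBE2C (chromosome 13, 75306757 to 75310188) followed, with 16.2 RPKM in PRE and 0.94 in POST uterus and 14.6 and 0.77 in endometrium, differences of -3.84 and -3.93. CDK1, the kinase on which entry into mitosis depends, stood at 11.3 and 1.33 RPKM in uterus and at 8.87 and 2.33 in endometrium. Its difference passed the rule in uterus, at -2.91, and missed it in endometrium, at -1.84. CCNA2, the cyclin A of dividing cells, was lower in both, with 5.12 and 0.90 RPKM in uterus and 5.04 and 0.98 in endometrium. Its mean reads per library were 220 and 71.75 in uterus and 188.7 and 62.3 in endometrium. It thus passed the rule for RPKM only. MKI67 (chromosome 26, 47851223 to 47879459) stood at 5.94 and 0.27 RPKM in uterus and at 5.27 and 0.17 in endometrium, a ratio of 21.99 and of 31.02 between the stages.

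Genes of the kinetochore and the spindle checkpoint had the lowest median of any group with more than a single gene, -3.46 in uterus and -3.28 in endometrium, and 5 of the 5 measured were 4-fold lower in uterus and 4 in endometrium. CENPF, a protein of the outer kinetochore, stood at 7.03 RPKM in PRE and 0.31 in POST uterus and at 4.32 and 0.25 in endometrium. BUB1B, the checkpoint protein BubR1, stood at 6.01 and 0.34 RPKM in uterus and at 4.74 and 0.16 in endometrium. NDC80, which binds microtubules at the kinetochore, stood at 4.19 and 0.20 RPKM in uterus and at 3.01 and 0.13 in endometrium. BIRC5 (survivin), a subunit of the chromosomal passenger complex, was higher in level than these 3 before puberty, at 8.79 RPKM in uterus and 6.95 in endometrium, and stood at 0.78 and 0.81 after it. CENPE, a kinetochore motor, was the exception in endometrium. It stood at 2.33 and 0.28 RPKM in uterus (-2.40) but at 1.69 and 0.46 in endometrium (-1.51).

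Among the motors, spindle and cytokinesis genes 7 of 8 were 4-fold lower in uterus and all 8 were in endometrium, with medians of -2.68 and -2.79. ASPM, a protein of the spindle poles, had the largest ratio of RPKM in uterus, 40.4, from 3.11 to 0.08 RPKM, and stood at 1.86 and 0.06 in endometrium. KIF20A and KIF2C, a kinesin of the central spindle and one that depolymerises microtubules, had 7.18 and 2.99 RPKM in PRE uterus and 0.47 and 0.12 in POST uterus. In endometrium KIF20A stood at 7.11 and 0.39 RPKM and KIF2C at 2.75 and 0.19. NUSAP1 and TPX2, which organise spindle microtubules, kept more of their level. NUSAP1 had 9.38 RPKM in PRE and 1.41 in POST uterus and 7.16 and 1.42 in endometrium. In mean reads per library NUSAP1 differed far less, at 841.5 and 532.75 in uterus and 613 and 552 in endometrium. Its 4-fold differences thus held for RPKM only. TPX2 had 8.70 and 1.09 RPKM in uterus and 7.83 and 1.30 in endometrium. PRC1, which bundles microtubules between the separating chromosomes, stood at 11.2 and 2.18 RPKM in uterus and at 9.66 and 1.25 in endometrium. In uterus PRC1 passed the rule for RPKM only, with 904.5 and 328 mean reads per library. ANLN, the actin-binding anillin of the cleavage furrow, stood at 5.88 and 0.96 RPKM in uterus and at 5.01 and 0.54 in endometrium. ECT2, which activates the small GTPase of the furrow, lay beside the limit. It stood at 5.37 and 1.22 RPKM in uterus (-1.97, just outside) and at 3.88 and 0.72 in endometrium (-2.15, just inside), while the gene nearest the limit from inside in uterus was PRC1 (-2.26) and from outside in endometrium was CDT1 (-1.88).

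Of the 3 mitotic kinases measured, TTK, the kinase MPS1 of the checkpoint, was 4-fold lower in both tissues, from 2.10 to 0.09 RPKM in uterus and from 1.56 to 0.07 in endometrium. AURKA missed the rule in both, with 3.30 and 0.83 RPKM in uterus and 2.74 and 0.64 in endometrium. Its differences were -1.77 and -1.81, although its plain ratio of RPKM in endometrium was 4.28, because the 0.2 added before the logarithm shrinks the difference of low genes. PLK1, the polo-like kinase, stayed at 10.2 RPKM in PRE and 10.1 in POST endometrium (-0.02) and stood at 9.34 and 5.36 in uterus (-0.78). The mean reads of PLK1 in endometrium were 567 in PRE and 704.3 in POST. With these reads scaled by the group total, its difference had the opposite sign, so its direction there is not given.

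The median differences of the replication groups were nearer 0 than those of the mitotic groups, a difference that was not tested and that RRM2 on the one side and CCNB1 and PLK1 on the other did not share. The 7 genes of licensing and the helicase had median differences of -1.33 in uterus and -1.14 in endometrium, with 1 gene 4-fold lower in each. That gene was CDT1 in uterus, which stood at 2.59 and 0.22 RPKM (-2.73) there and at 1.62 and 0.29 in endometrium (-1.88). In endometrium it was CDC6, which stood at 1.45 and 0.13 RPKM (-2.30) there and at 1.71 and 0.33 in uterus (-1.84). With mean reads scaled by the group total, CDT1 and CDC6 passed in both tissues. The 5 MCM subunits measured, which form most of the helicase ring, ranged from 5.21 RPKM (MCM4) to 42.6 (MCM7) in PRE uterus and from 2.14 to 26.3 in POST uterus. Their differences ran from -1.39 to -0.69 in uterus and from -1.48 to -0.63 in endometrium, and none reached 4-fold. PCNA, the sliding clamp of the polymerase, stood at 32.2 and 16.9 RPKM in uterus and at 23.8 and 15.1 in endometrium. FEN1, the flap nuclease that finishes lagging strands, stood at 6.40 and 3.39 RPKM in uterus and at 5.17 and 4.45 in endometrium. RRM2, the small subunit of ribonucleotide reductase that is made in S phase, behaved otherwise, with 7.16 and 0.43 RPKM in uterus and 6.26 and 0.30 in endometrium, ratios of 16.5 and 20.8.

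Of the transcription factors, FOXM1 (chromosome 5, 107386227 to 107397369) stood at 1.23 and 0.08 RPKM in uterus and at 1.08 and 0.06 in endometrium, differences of -2.33 and -2.31. By mean reads it was the lowest gene of the list in both POST groups, at 9 per library in uterus and 7.33 in endometrium. Its ratios thus rest on few reads. In RPKM ASPM stood lower in POST uterus, at 0.077 against 0.084. E2F1, an activator of replication genes, stood at 2.54 and 0.61 RPKM in uterus (-1.77) and at 2.26 and 0.98 in endometrium (-1.06). Over all genes 4-fold lower, the mean reads per library ran from 100.2 to 1649 in PRE and from 9 to 532.8 in POST uterus, and from 76.3 to 1055 in PRE and from 7.33 to 552 in POST endometrium.

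**Figure D3:**
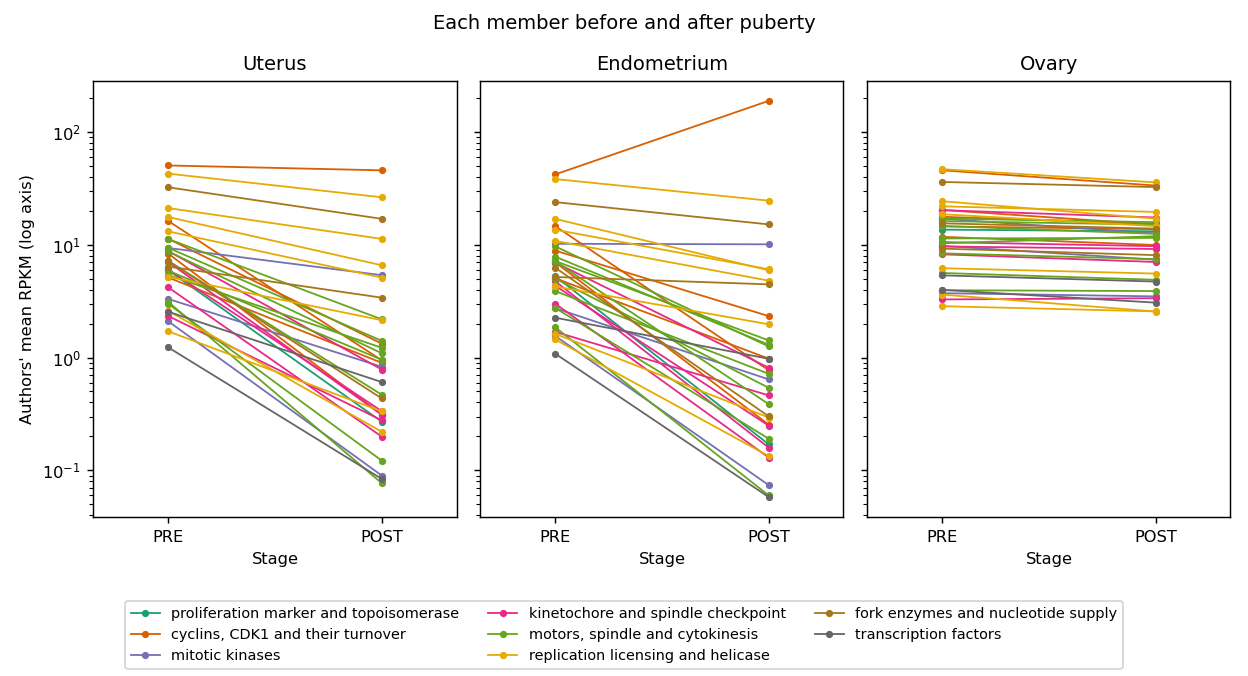
Authors' mean RPKM of each of the 34 genes in PRE and POST uterus, endometrium and ovary, on a log axis, 1 line per gene colored by role. Lines slope down in both uterine tissues, except CCNB1, which runs from 50.3 to 45.5 RPKM in uterus and from 41.9 to 187.9 in endometrium, and PLK1, near level in endometrium, whereas in ovary no difference exceeded 1.42-fold with 0.2 RPKM added.

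The genes past the rule overlapped. Of the 21 lower in uterus 85.7% (18 genes) were also lower in endometrium, and these made up 90.0% of the 20 lower in endometrium. The overlap over all genes was not computed, so these shares are not shown to be particular to the list. CDK1, CDT1 and CENPE passed in uterus alone and CDC6 and ECT2 in endometrium alone, with differences from -1.97 to -1.51 in the tissue where each missed. For CDT1 and CDC6 this held for RPKM only. The 11 genes that passed in neither were CCNB1, AURKA, PLK1, the 5 MCM subunits, PCNA, FEN1 and E2F1. Over the 10 groups of hypothalamus, pituitary gland, adipose, liver and muscle, 11 genes of the list had a median of 1 RPKM or more, and 3 of them were 4-fold lower in uterus and 3 in endometrium. Of the 23 genes below 1 RPKM there, 18 were lower in uterus and 17 in endometrium. Across the 34 genes, Spearman's rho between that median and the difference was 0.63 for uterus and 0.58 for endometrium. These points are genes measured in the same libraries, not independent replicates.

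**Figure D4:**
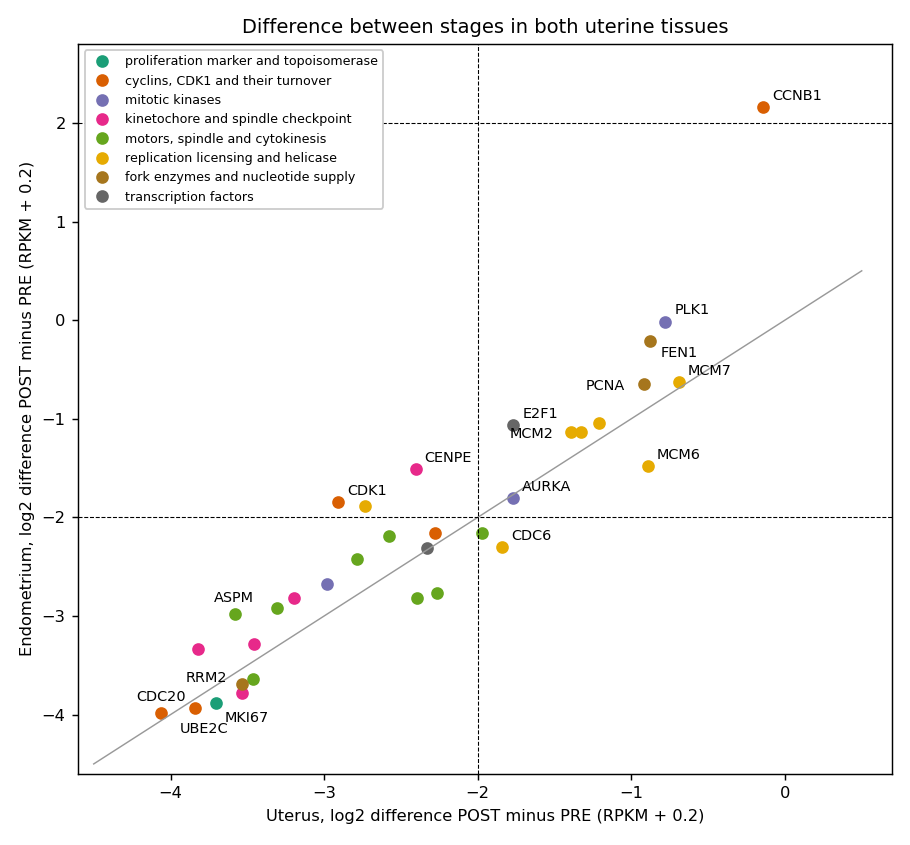
Difference between stages in endometrium (y axis) against uterus (x axis) for each of the 34 genes, colored by role, both as log2(RPKM + 0.2), POST minus PRE. Dashed lines mark 4-fold and the grey line equal differences. CDC20, UBE2C, MKI67 and RRM2 lie at the lower left, MCM7, PCNA, FEN1 and PLK1 lie at the upper right (-0.92 to -0.69 in uterus), and CCNB1 stands alone at -0.14 in uterus and 2.16 in endometrium.

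In the levels of these genes the uterus stood apart from the tissues outside the reproductive tract before puberty, and after puberty it mostly did not. PRE uterus exceeded all 10 groups of the 5 other tissues in 32 of the 34 genes (the exceptions were ANLN and FEN1) and PRE endometrium in 31 (not in ANLN, MCM7 and FEN1). POST uterus exceeded all 10 in 6 genes, CCNB1, PLK1, MCM2, MCM3, MCM6 and CDC6, and POST endometrium in 4, CDK1, CCNB1, PLK1 and MCM2. The share of all genes that exceeded all 10 groups was not computed for any uterine group. As a ratio to the median of those 10 groups, the median gene stood at 11.1 in PRE and 1.23 in POST uterus, at 9.12 in PRE and 1.01 in POST endometrium, and at 19.2 and 17.7 in ovary. Relative to the ovary of the same stage, the median gene had 62.8% of its RPKM in PRE uterus and 8.82% in POST uterus, and 48.8% and 8.52% in endometrium. For all genes of 1 RPKM or more the same medians lay between 93.8% and 97.7%.

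Markers of cell types also moved between stages in these tissues. In endometrium the 5 smooth muscle genes measured summed to 3211 RPKM in PRE and 241 in POST, with 5 of 5 4-fold lower (3.31% of all genes) and a median difference of -3.72. The 5 stromal genes summed to 5484 and 2706 RPKM, with the 3 collagens lower (COL1A1 at 1002 and 317 RPKM) and the proteoglycans DCN (801 and 868 RPKM) and LUM (153 and 168 RPKM) not. Leukocyte genes summed to 57.9 and 26.8 RPKM, T and NK cell genes to 17.04 and 6.97, and the 3 epithelial genes measured to 112 and 351. Of these 3, EPCAM stood at 71.6 and 222 RPKM and CLDN4 at 6.34 and 95.2, but KRT19 at 34.3 and 34.5. In uterus the same smooth muscle genes summed to 4572 RPKM in PRE and 6515 in POST (median 0.37), stromal genes to 4092 and 5890 and leukocyte genes to 37.9 and 41.0. Epithelial genes summed to 79.7 and 116 RPKM in uterus, where EPCAM stood at 50.5 and 73.4 and CLDN4 at 3.69 and 32.3 but KRT19 at 25.5 and 9.86. None of these markers was at 0 in a uterine group. The part of the tissue make-up in the lower levels of the mitotic genes was not tested.

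CCNB1, the cyclin B that activates CDK1, did not follow its partner. It stood at 50.3 RPKM in PRE and 45.5 in POST uterus (-0.14), and at 41.9 in PRE and 187.9 in POST endometrium (2.16), where its mean reads per library were 1615 and 9778. In ovary it stood at 17.7 and 15.3 RPKM, and in the other 5 tissues between 0.20 and 2.71. The ratio of CCNB1 to CDK1, both per length, was 1.22 and 1.12 in PRE and POST ovary, 4.46 and 34.3 in uterus and 4.72 and 80.7 in endometrium. Outside these tissues it ranged from 0.361 in PRE pituitary gland to 3.51 in PRE adipose.

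The genes beside CCNB1 (ENSBTAG00000014239, UMD3.1 chromosome 20, 10431453 to 10441126) were examined after its values were seen. Within 200000 bp on each side the annotation held 10 gene models, CCNB1 included. The gene model RT36_BOVIN (10390982 to 10399140), whose UniProt entry is the mitochondrial ribosomal protein MRPS36, stood at 59.9 RPKM in PRE and 895 in POST endometrium (3.90) and at 62.7 and 285 in uterus (2.18). CENPH, a kinetochore gene that starts at 10407095 and ends 5540 bp from CCNB1, stood at 6.23 and 26.3 RPKM in endometrium (2.04) and at 5.85 and 9.19 in uterus (0.63). SLC30A5, a zinc transporter 14530 bp away on the other side, stood at 38.2 and 156 RPKM in endometrium (2.03) and 38.3 and 49.6 in uterus (0.37). Thus 4 gene models in a row, CCNB1 among them, stood 4-fold higher in POST endometrium. In ovary the differences of these 4 ran from -0.20 to 0.35.

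**Figure D5:**
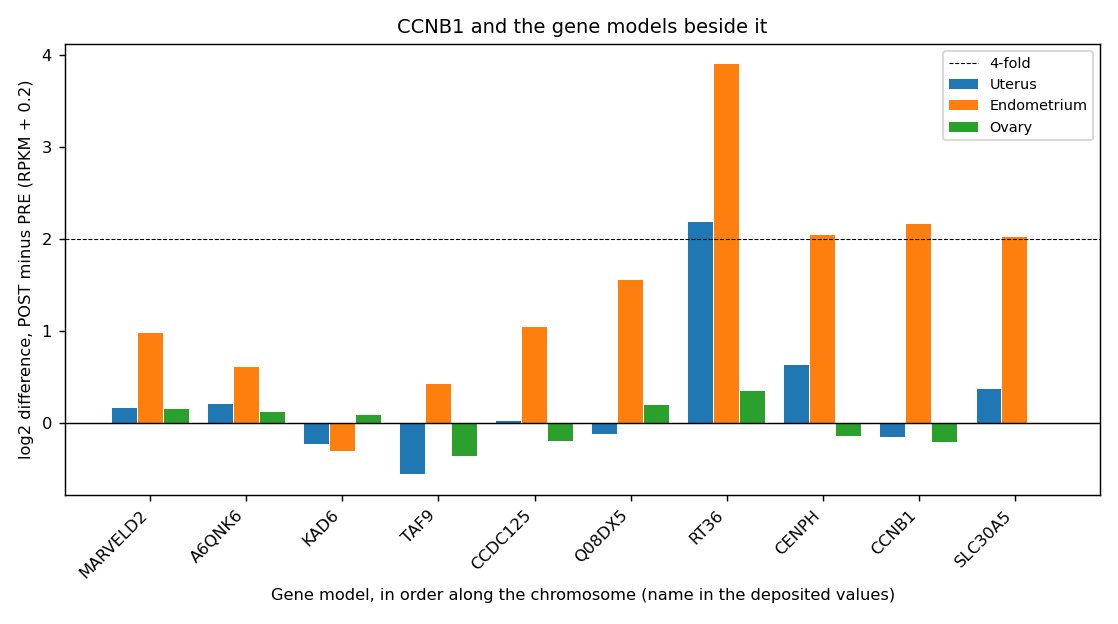
Difference between stages, log2(RPKM + 0.2), POST minus PRE, of CCNB1 and the 9 gene models within 200000 bp of it on either side, in order along the chromosome, in uterus, endometrium and ovary. In endometrium RT36 (3.90), CENPH (2.04), CCNB1 (2.16) and SLC30A5 (2.03) pass the dashed 4-fold line, and in uterus RT36 alone does (2.18).

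In ovary none of the 34 genes was 4-fold different, where 0.56% of all genes were lower and 1.38% higher, and none was 2-fold different (2.42% lower and 4.1% higher). The largest difference was that of MCM2, the helicase subunit, at 24.2 RPKM in PRE and 16.985 in POST ovary (-0.51, or 1.42-fold with 0.2 added). The median was -0.17 and 31 of the 34 differences lay below 0, beside 57.1% of all genes compared. MKI67 stood at 13.6 and 13.1 RPKM, CDC20 at 20.3 and 15.0, CDK1 at 14.5 and 13.7 and PCNA at 35.9 and 32.4. Only ANLN (0.20), KIF20A and CENPE were higher in the POST mean.

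The remaining 5 tissues held no 4-fold difference in any of the genes. Of the 34 genes, 25 reached 0.2 RPKM in a stage in hypothalamus and 29 in pituitary gland. The numbers were 31 in adipose, 26 in liver and 24 in muscle. With 0.2 added, a gene at a low level in PRE cannot become 4-fold lower. Many of these genes could therefore not have been counted as lower in these tissues. Of all genes, 0.202% were 4-fold lower and 0.215% higher in hypothalamus. The shares were 2.44% and 0.104% in pituitary gland, 0.137% and 1.95% in adipose, 0.059% and 0.0221% in liver and 0.233% and 0.496% in muscle. At the smaller step of 2-fold, 1.48% of all genes were lower and 1.72% higher in hypothalamus, and 7.43% and 0.989% were so for pituitary gland, 1.66% and 4.14% in adipose, 0.494% and 0.303% in liver, and 1.52% and 2.02% in muscle. Of the 34 genes only 2 passed it, both in pituitary gland, where UBE2C (2.90 and 0.88 RPKM, -1.52) and CDC20 (1.04 and 0.34 RPKM, -1.20) were lower. The PRE pituitary libraries also held far more stromal RNA (4312 RPKM in sum, 264 in POST) and endothelial RNA (190 and 23.3), and the liver gene list summed to 931 and 44.7, mostly from TTR (805 and 12.1), a gene also made by the choroid plexus, with ALB at 26.995 and 18.232. Their part in these 2 differences was not tested. In adipose the median difference was 0.17 and the largest that of NDC80 (0.19 and 0.49 RPKM, 0.83), followed by MKI67 (0.39 and 0.82 RPKM, 0.79). Hepatocyte genes summed to 43.2 RPKM in PRE and 1657 in POST adipose, against 43669 and 50071 in liver, where the levels of the 34 genes were lower than in adipose (medians of 0.474 and 0.366 RPKM). In liver the widest differences were those of TPX2 (0.58) and CCNA2 (-0.57), and in muscle that of E2F1 (0.56), from 0.21 to 0.41 RPKM.

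ANLN differed from the rest of the list in where it was found. Anillin is also known from the myelin-forming cells of the brain in mouse. Its mean was 138.5 RPKM in PRE and 82.5 in POST hypothalamus, 9.98-fold its mean in the next tissue, ovary, where it stood at 10.3 and 11.9 RPKM. In pituitary gland it stood at 6.68 and 5.82 RPKM, in adipose at 1.37 and 1.31, and in liver and muscle between 0.34 and 0.60. No other gene of the list was high in hypothalamus in this way, with MKI67 at 0.11 and 0.15 RPKM and CDC20 at 0.14 and 0.27 there. Myelin genes, chosen after this was seen, were also highest in hypothalamus. In pituitary gland MBP stood at 701 and 10.8 RPKM, against 6.68 and 5.82 for ANLN. The other myelin genes measured were low there. MOG stood at 3.78 and 2.03 RPKM, MOBP at 2.31 and 1.20, OPALIN at 2.15 and 0.34 and MAG at 1.92 and 0.55. The mean reads of ANLN in pituitary gland were 2068 in PRE and 817.5 in POST. How far ANLN differed between stages in pituitary gland thus depended on the measure. MBP stood at 9251 RPKM in PRE and 6856 in POST hypothalamus, MOBP at 914 and 800, MOG at 410 and 364 and MAG at 323 and 345. The difference of ANLN between stages in hypothalamus was -0.75, and in 2 of the hypothalamus libraries, not named in the sources used here, reads were shorter and from an earlier instrument. Its part in this difference was not tested.

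Other cell cycle genes were examined from lists that leave out the 49. Uterus had 22 of the 90 genes measured 4-fold lower and none higher (median -0.98), against 1.61% and 1.34% of all genes. Endometrium had 26 lower and 1, CENPH, higher (median -1.10), against 3.31% and 3.23%. Further mitotic genes accounted for most of these, with 20 of 47 lower in uterus and 23 in endometrium and medians of -1.74 and -1.71. HJURP, the chaperone of centromeric histone, stood at 5.02 and 0.19 RPKM in uterus and 4.15 and 0.16 in endometrium. SPAG5 (astrin), a spindle protein, stood at 4.04 and 0.17 RPKM in uterus and 3.61 and 0.13 in endometrium. CDCA8 (borealin), of the passenger complex, stood at 3.41 and 0.17 RPKM in uterus and 3.20 and 0.06 in endometrium. PTTG1 (securin) stood at 7.64 and 0.57 RPKM in uterus and 6.98 and 0.65 in endometrium. DEPDC1 completed the 6 largest in uterus (2.70 and 0.09 RPKM), and NCAPG, a condensin subunit, those in endometrium (5.86 and 0.48 RPKM).

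Of the 26 replication factors measured, 1 passed the rule in uterus (median -0.60) and 3 did in endometrium (median -0.27), all lower. With 1.61% and 3.31% of all genes lower, a count of 1 among 26 is near the background. UHRF1, which keeps DNA methylation at the fork, stood at 8.71 and 0.26 RPKM in uterus (-4.29) and 5.96 and 0.35 in endometrium (-3.48). The other 2 in endometrium were subunits of the origin recognition complex, ORC6 (37.4 and 7.49 RPKM) and ORC1 (1.20 and 0.14 RPKM). Of the 6 other E2F factors measured, only E2F7, a repressor, was 4-fold lower, in uterus (2.09 and 0.05 RPKM). Among the 8 G1 cyclins, kinases and retinoblastoma proteins none passed the rule. CCND2, cyclin D2, came nearest at 15.1 and 3.90 RPKM in endometrium (-1.90), whereas CCND1, cyclin D1, stood at 6.92 and 7.30 RPKM in uterus and 9.82 and 13.3 in endometrium. Of the 3 inhibitors of cyclin-dependent kinases measured none passed. In the 6 tissues other than uterus and endometrium none of the 90 genes was 4-fold different, though genes at a low level in PRE could not have been counted as lower.

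Some genes of the list share their position with other gene models in the annotation. CDT1 overlaps APRT, which stood at 32.9 and 28.3 RPKM in uterus and 31.2 and 30.9 in endometrium. MCM7 overlaps 3 microRNA genes, ANLN 4 unnamed gene models and PRC1 a U6 RNA, all of which were listed at 0 in the uterine groups. How reads in the shared bases of CDT1 and APRT were counted is not given in the sources used here.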

How the data were processed

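RNA-Seq was measured in 61 libraries of 8 tissues from PRE and POST Brangus heifers. The authors trimmed and mapped the reads with CLC Genomics Workbench to bovine assembly UMD 3.1 (annotation release 74), and deposited, for each gene and group of tissue and stage, a mean of unique reads (an average of counts, not a count) and a mean RPKM. Since the deposited RPKM values are averages over 3 or 4 libraries, no error, interval or test between stages can be had from them. Fractions in the mean reads fit 3 libraries for the hypothalamus groups, labelled with 4, and 4 for PRE pituitary gland, labelled with 3.

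Genes were matched to the files by symbol, by UniProt entry name or by the study's table of identifiers, and each of the 34 had a single row. Differences were taken as log2(RPKM + 0.2), POST minus PRE, among genes at 0.2 RPKM or more in a stage, and called at 4-fold. This size rule was tested on simulated reads with known changes in genes at 1 RPKM or more in PRE. The simulation held no shift in tissue make-up, so it does not show how the rule behaves under one. Alternatives were 0.05 or 1 added, a limit of 1 RPKM or none, reads scaled by the group total, centring on the median of all genes, and summed rows. Named genes were any of the list, plus up to 6 other cell cycle genes per direction. The genes and lists were chosen with earlier results of these data known. Python 3.11.15, numpy 2.4.6, pandas 2.3.3 and matplotlib 3.10.9 were used.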

Additional observations from a re-analysis of the deposited data

How the results depend on the processing

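Across the 7 alternatives, the number of genes 4-fold lower ran from 12 to 23 in uterus and from 9 to 22 in endometrium. The fewest, 12 and 9, came with 1 RPKM added in place of 0.2, which shrinks differences of low genes, and the medians were then -1.62 and -1.47. With mean reads scaled by the group total the counts were 19 in uterus and 19 in endometrium, of partly different genes. NUSAP1 and CCNA2 then passed in neither tissue and PRC1 not in uterus, whereas CDC6 passed in uterus and CDT1 in endometrium as well. The count higher in endometrium stayed 1 and the counts in the other 6 tissues stayed 0. Medians ran from -0.34 to -0.12 in ovary, -0.24 to -0.07 in pituitary gland, 0.06 to 0.24 in adipose, -0.08 to -0.04 in liver, 0.03 to 0.16 in muscle and -0.06 to 0.12 in hypothalamus. Scaling by the group total moved the median of all genes in hypothalamus from 0.07 to -0.07. No gene had several rows, so summing rows changed nothing. No paired analysis was possible because PRE and POST were different heifers and only group means were used, and for the same reason no replicate could be left out. The ratio of FOXM1, at 9 and 7.33 mean reads in POST uterus and endometrium, rests on few reads.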
